A study of Homo sapiens with 12 samples.

Results

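The translation initiation factor genes are the protein-coding genes whose symbol starts with EIF and a digit from 1 to 6. The rule uses the name and no measured value, but it was set with earlier results of these data known. It takes in 56 of the 63152 genes in the deposited table. The name also takes in 4 kinases that phosphorylate eIF2, 3 genes for 4E-BPs, which bind eIF4E, and EIF4ENIF1, whose product also binds it. Poly-A RNA was sequenced from 12 cultures in 3 conditions, with 4 biological replicates each: control, 2.5 µM acriflavine and 5 µM acriflavine, all collected at 24 h. Acriflavine, an antiseptic made up of acridine dyes, binds DNA. The labels name the cells HepG2, a line from a human liver tumour. They add that the cells were the HepG2S1 derivative, which was raised by growing HepG2 in rising doses of sorafenib, a kinase inhibitor used against liver cancer, so that the controls come from the same selected line. Per the labels, the medium of all groups held fetal calf serum, insulin and dexamethasone. The treatment of the controls is given as none in 1 label and as vehicle (DMSO) in the protocol. Parental HepG2 cells were not analysed here, and whether the cultures were grown in parallel is not given in the sources used here.

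Translation of most mRNAs starts when the cap-binding complex eIF4F (the cap binder eIF4E, the scaffold eIF4G and the helicase eIF4A) recruits a small ribosomal subunit that carries eIF1, eIF1A, eIF3, eIF5 and a ternary complex of eIF2, GTP and initiator tRNA. The complex scans to the start codon, GTP on eIF2 is hydrolysed and eIF5B brings in the large subunit. Cells limit the process at a pair of points. Kinases phosphorylate the alpha subunit of eIF2, which then blocks its own exchange factor eIF2B, and 4E-BPs hold eIF4E away from eIF4G until the kinase complex mTORC1 phosphorylates them. All values given here are mRNA levels, and neither protein nor phosphorylation was measured.

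Library totals ran from 10733567 to 15116842 counts, and no pair of replicates held identical counts. The labelled cell type was checked against its markers. Of 16 hepatocyte and HepG2 markers, 15 averaged under 1 CPM (counts per 1000000 on TMM-scaled library sizes) in the controls, AHSG was at 0 counts in every library, ALB had 2 counts over the 12 libraries, and FOXA1 was the exception at 10.00 CPM. The summed level of that list was between 10.2 and 13.5 CPM in the controls, between 12.9 and 14.4 at 2.5 µM and between 22.0 and 25.7 at 5 µM. The defining hepatocyte markers were thus at or near 0, which goes against the labelled cell type. Of 5 cholangiocyte markers, KRT7, KRT19, SOX9 and EPCAM were above 1 CPM and SPP1 had 1 count in all. The summed level of the list was between 3622 and 4074 CPM in the controls, between 3525 and 3991 at 2.5 µM and between 1483 and 1780 at 5 µM. Its members differed in direction: from control to 5 µM the mean level went from 3612 to 1580 CPM for KRT7 and from 203.5 to 51.4 for KRT19, but from 1.73 to 15.8 for SOX9 and from 3.57 to 5.88 for EPCAM. Of 7 fibroblast markers, COL1A1, DCN, LUM and PDGFRB were above 1 CPM, with a summed level of between 619 and 769 CPM in the controls, between 548 and 605 at 2.5 µM and between 557 and 599 at 5 µM, while PDGFRA had 1 count in all. Between the same groups, mean DCN went from 563 to 450.4 CPM and LUM from 119 to 82.1, but COL1A1 from 22.55 to 30.9 and PDGFRB from 4.51 to 16.4. The 5 endothelial markers summed to between 0.169 and 0.537 CPM in the controls, between 0.617 and 1.36 at 2.5 µM and between 7.13 and 8.69 at 5 µM, with PECAM1 at 0 throughout. The 5 blood markers summed to 0.448 to 1.1, 0.757 to 1.31 and 3.56 to 4.54 CPM, with CD3E at 0 throughout. The part of these markers in the differences below was not tested.

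Several initiation factor genes have near-identical copies elsewhere in the genome, and the sequences show how little separates them for reads of 75 bases or fewer. The first 75 coding bases of EIF2S3 on chromosome X, which encodes the gamma subunit of eIF2, are set beside the matching stretch of EIF2S3B on chromosome 12, and those of EIF4A1 on chromosome 17 beside its processed pseudogene EIF4A1P10 on chromosome X. Sequences are from GENCODE 29 transcripts (GRCh38), and capitals mark the 3 bases at which each pair differs.
EIF2S3: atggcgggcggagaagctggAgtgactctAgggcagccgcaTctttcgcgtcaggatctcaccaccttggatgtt
EIF2S3B: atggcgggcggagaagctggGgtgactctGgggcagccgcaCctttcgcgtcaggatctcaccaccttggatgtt
EIF4A1: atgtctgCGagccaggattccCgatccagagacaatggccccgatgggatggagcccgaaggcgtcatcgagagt
EIF4A1P10: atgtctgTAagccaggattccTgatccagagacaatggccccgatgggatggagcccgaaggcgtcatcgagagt
Over the whole coding sequence of EIF4A1, 17.6% of all 75-base windows occur without a mismatch in EIF4A1P10 and 21.7% in any named copy. The share was 97.7% for EIF3C, 69.8% for EIF1AX, 55.2% for EIF4E, 51.7% for EIF2S2, 48.1% for EIF4B, 41.9% for EIF3F, 38.5% for EIF4H, 30.5% for EIF2S3 and 28.7% for EIF5A. Counts of these genes are therefore uncertain. Adding the named copies to the parent, an alternative chosen after seeing the data, changed a call for EIF1AX and EIF4E at 2.5 µM and for EIF3F at 5 µM, and those values are given beside the genes.

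Of the 56 genes, 52 had enough counts to be tested. EIF3CL (6 counts over the 12 libraries), EIF4EBP3 (1, 2 and 4 counts summed over the control, 2.5 µM and 5 µM libraries), EIF4E1B (0 counts) and EIF1AY were not. At 5 µM, 13 of the 52 were higher and 31 lower than in the controls (edgeR quasi-likelihood test, Benjamini-Hochberg adjusted p under 0.05 over the 16839 genes tested). Over all genes tested, 78.2% were called in either direction, 38.7% higher and 39.4% lower. The number of initiation factor genes called, 44, was thus near that of genes at large, and the calls lay more often on the lower side. Their median log2 fold change was -0.33, against -0.01 over all genes. On library-size scaling in place of TMM, the median over all genes was 0.12 and that of the initiation factor genes -0.19, and EIF2B4, EIF2D, EIF3H, EIF4E2 and EIF4H were then called higher at 5 µM. Of the 52, 11 (21.2%) were called and changed by at least 2-fold, near the 26.4% of all genes. In bulk RNA, fewer cells of a type and less RNA per cell cannot be told apart, and CPM values are shares of the sequenced mRNA, not amounts per cell.

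At 2.5 µM, 15 of the 52 were higher and 18 lower than in the controls, where 59.1% of all genes were called, 30.7% higher and 28.5% lower. EIF4EBP1 was the 1 gene of the 52 called with a change of at least 2-fold (1.92%, against 10.1% of all genes). Between the doses, 10 were higher and 30 lower at 5 µM than at 2.5 µM, where 68.4% of all genes were called, 33.6% higher and 34.8% lower. Of these, 3 were called with a change of at least 2-fold, EIF1AX, EIF4A2 and EIF4E3 (5.77%, against 13.1% of all genes). A change of at least 1.5-fold was called for 19 genes at 5 µM (36.5%, against 47.1% of all genes), for 3 at 2.5 µM (5.77%, against 21.9%) and for 16 between the doses (30.8%, against 30.6%). Both doses were set against the same 4 controls, so those comparisons are not independent. The 4 control and 4 treated values did not overlap for 42 of the 52 genes at 5 µM (70.8% of all genes), for 30 at 2.5 µM (50.5%) and for 40 between the doses (62.1%).

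Across the steps from control to 2.5 µM and from 2.5 to 5 µM, 12 genes (23.1% of the 52, against 14% of all genes tested) fell at both and 5 (9.62%, against 14.8%) rose at both. For another 12 genes (23.1%, against 13.0%), the lower values passed the test in the second step and the first step did not pass. Another 6 genes (11.5%, against 7.87%) rose at 2.5 µM and fell from 2.5 to 5 µM, namely EIF2S1, EIF2B4, EIF2D, EIF3G, EIF4H and EIF6. EIF2S1 and EIF6 ended below the controls, the 2 genes called in opposite directions at the doses (3.85%, against 4.22% of all genes). EIF1AD, EIF3H and EIF4E2 passed the test in none of the 3 comparisons (5.77%, against 11.2%). Summed over the 52 genes, the level was between 9462 and 9923 CPM in the controls, between 9214 and 9352 at 2.5 µM and between 8139 and 8236 at 5 µM, and the ranges of the 3 groups did not overlap.

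**Figure D1:**
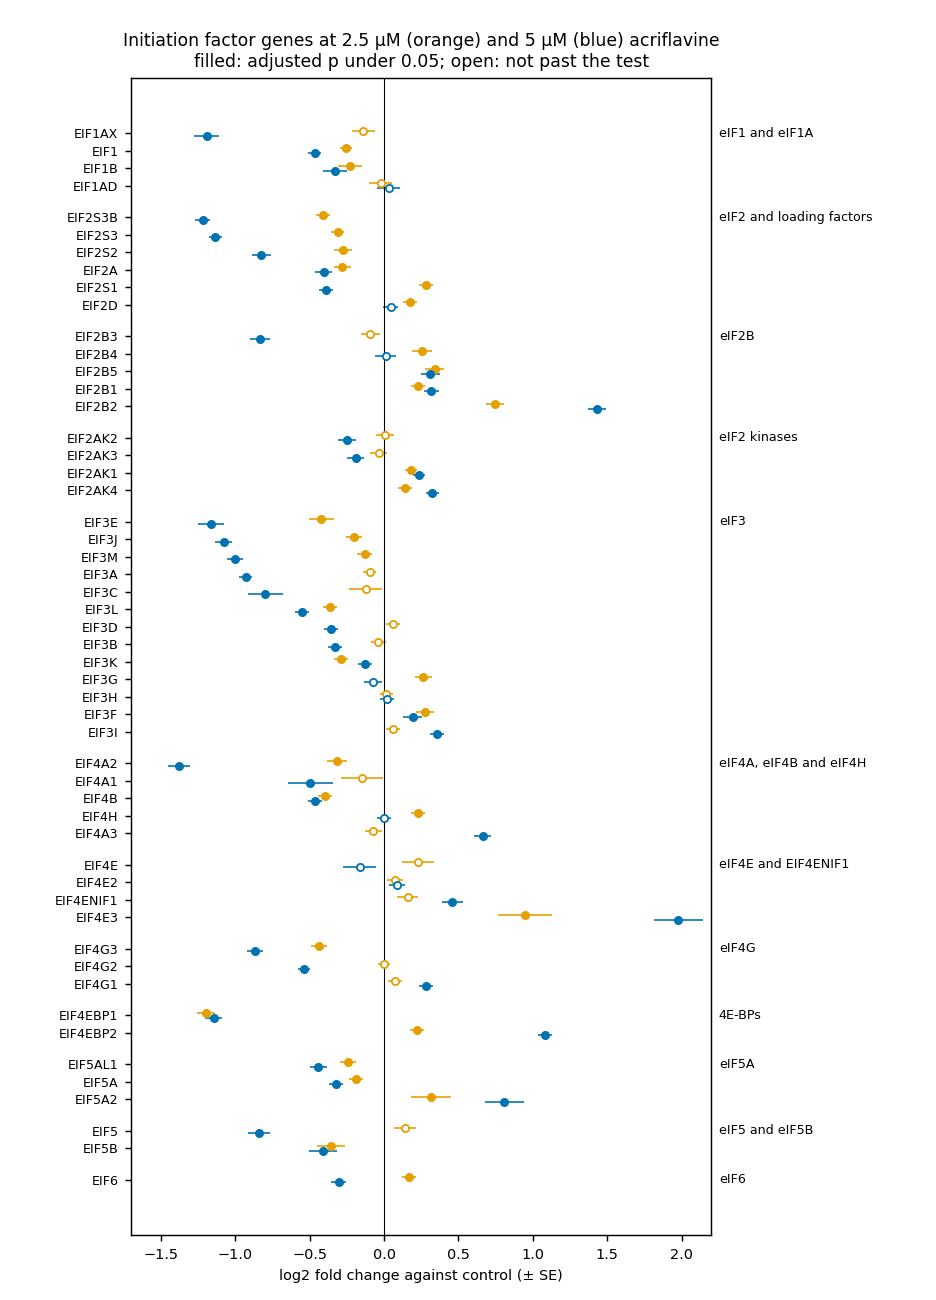
Log2 fold change (x axis, ± SE) of the 52 tested initiation factor genes (y axis, grouped by role) at 2.5 µM (orange) and 5 µM (blue) acriflavine against control, with filled points past an adjusted p of 0.05 and open points not past it. At 5 µM, 31 genes lie to the left and 13 to the right with filled points, from EIF4A2 at -1.38 to EIF4E3 at 1.98.

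In the controls, levels per kilobase of exon (all annotated exons of a gene joined) spanned from EIF5A at 260 ± 15.2 CPM per kb to EIF4E3 at 0.239 ± 0.0780. EIF3I at 163 ± 10.6, EIF1 at 135.0 ± 5.04, EIF4EBP1 at 127 ± 9.63 and EIF4H at 106 ± 5.01 CPM per kb followed EIF5A. EIF4G1 (85.8 ± 5.76), EIF6 (83.8 ± 3.75), EIF4G2 (83.6 ± 3.69) and EIF3K (80.5 ± 4.82) were neighbours in this order that did not differ beyond their SD over 4 libraries. At the low end, EIF4E stood at 0.774 ± 0.0474 and EIF4A1 at 0.990 ± 0.145 CPM per kb, both genes whose reads are shared with copies. By the length of the longest transcript in place of all exons, EIF5A was again the first and EIF4E3 the last of the 52, while EIF3B moved from place 15 to place 5.

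eIF1 and eIF1A bind the small subunit and set how strictly the start codon is read. At 5 µM, 3 of the 4 tested genes of this group fell and none rose. The group was formed by symbol, which is how EIF1AD came into it. The share called was 75.0%, against 78.2% of all genes, where 39.4% were lower. EIF1AX, which encodes eIF1A, read 35.5, 41.04, 36.3 and 38.2 CPM in the controls, 32.6, 37.1, 38.3 and 29.6 at 2.5 µM and 16.9, 15.9, 17.2 and 16.1 at 5 µM. All 4 libraries at 5 µM lay below every library of the other groups, and the control and 2.5 µM values overlapped. It fell by 1.19 ± 0.08 on the log2 scale (SE, edgeR adjusted p = 6.68e-15), and the difference at 2.5 µM was -0.14 ± 0.08 (SE, edgeR adjusted p = 0.115). EIF1 fell at each step, with 489 ± 18.3 CPM in the controls, 409.6 ± 10.2 at 2.5 µM and 354 ± 10.3 at 5 µM (SD, n = 4). Its log2 fold change at 5 µM was -0.47 ± 0.04 (SE, edgeR adjusted p = 5.7e-12). EIF1B, a paralogue of EIF1, fell by 0.33 ± 0.08 on the log2 scale (SE, edgeR adjusted p = 0.0004), and EIF1AD stood at 0.03 ± 0.08 (SE, edgeR adjusted p = 0.73). With its copies added, EIF1AX came to -1.08 ± 0.06 (SE, edgeR adjusted p = 6.85e-17) at 5 µM and -0.15 ± 0.06 (SE, edgeR adjusted p = 0.0338) at 2.5 µM, which passed the test.

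eIF2 carries the initiator tRNA, and its 3 subunits differed at the lower dose. EIF2S1, which encodes the alpha subunit that the stress kinases phosphorylate, read 154, 165, 151 and 166 CPM in the controls, 192, 196, 199.5 and 187 at 2.5 µM and 121, 128, 116 and 121 at 5 µM. The 2.5 µM libraries were the highest and the 5 µM libraries the lowest, with no overlap between any groups. The log2 fold change was 0.28 ± 0.05 (SE, edgeR adjusted p = 4.23e-06) at 2.5 µM and -0.39 ± 0.05 (SE, edgeR adjusted p = 6.04e-09) at 5 µM. EIF2S3, the gamma subunit gene that binds GTP and the tRNA, read 354, 361, 354 and 372 CPM in the controls, 282, 301, 303 and 275 at 2.5 µM and 159.6, 174, 166 and 158 at 5 µM. The groups stepped down with dose without overlap. It fell by 1.13 ± 0.05 on the log2 scale (SE, edgeR adjusted p = 3.05e-21) at 5 µM, and the log2 fold change at 2.5 µM was -0.31. EIF2S3B, the copy whose start is printed above, read 226, 225, 217 and 213 CPM in the controls, 171, 173, 166 and 154 at 2.5 µM and 93.3, 99.4, 91.1 and 94.6 at 5 µM. Its groups were likewise separate and in the same order, and the log2 fold change at 5 µM was -1.22 ± 0.05 (SE, edgeR adjusted p = 1.46e-21). Reads of EIF2S3 could be counted there, so the 2 genes may not be separate observations, though each enters the counts of genes. Added together, EIF2S3 and EIF2S3B gave -1.17 ± 0.04 (SE, edgeR adjusted p = 3.91e-22). EIF2S2, the beta subunit gene, fell by 0.83 ± 0.06 on the log2 scale (SE, edgeR adjusted p = 1.97e-13) at 5 µM, and the log2 fold change at 2.5 µM was -0.28. At 2.5 µM, EIF2S1 was thus higher while EIF2S2 and EIF2S3 were lower than in the controls.

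EIF2A and EIF2D encode factors that can deliver tRNA to the ribosome outside the usual eIF2 route. EIF2A, with 109.9 ± 9.66 CPM in the controls, 90.6 ± 5.19 at 2.5 µM and 83.00 ± 3.32 at 5 µM, fell by 0.41 ± 0.06 on the log2 scale (SE, edgeR adjusted p = 1.27e-07). EIF2D was higher at 2.5 µM, at 0.17 ± 0.05 (SE, edgeR adjusted p = 0.00217), and stood at 0.04 ± 0.05 (SE, edgeR adjusted p = 0.397) at 5 µM. Of the 6 genes of eIF2 and these loading factors, 5 fell and none rose at 5 µM, and their summed level was between 1069 and 1126 CPM in the controls, between 946.6 and 1014 at 2.5 µM and between 658 and 692 at 5 µM. The share called at 5 µM was 83.3%, against 78.2% of all genes, where 39.4% were lower.

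eIF2B exchanges GDP for GTP on eIF2 and is the target of phosphorylated eIF2. Of its 5 subunit genes, 4 rose and none fell at 2.5 µM, and 3 rose and 1 fell at 5 µM. Over all genes tested, 59.1% were called at 2.5 µM, 30.7% higher and 28.5% lower. At 5 µM, 78.2% of all genes were called, 38.7% higher and 39.4% lower. The 4 of 5 subunit genes called at 5 µM were thus near the share of all genes. EIF2B2, the beta subunit gene, read 49.1, 43.4, 52.98 and 45.8 CPM in the controls, 79.6, 80.3, 78.99 and 81.5 at 2.5 µM and 124, 118, 139 and 132 at 5 µM. The groups stepped up with dose and did not overlap. Its log2 fold change was 0.75 ± 0.06 (SE, edgeR adjusted p = 1.7e-12) at 2.5 µM and 1.43 ± 0.06 (SE, edgeR adjusted p = 6.6e-21) at 5 µM, the largest rise at 5 µM among the 52 after EIF4E3. A gene on the opposite strand (AL049780.3) overlaps 23.6% of the exon bases of EIF2B2 in GENCODE 29, and the strand setting of the counting is not given in the sources used here, so reads of that gene cannot be told apart. EIF2B5, which encodes the catalytic epsilon subunit, read 38.3, 42.7, 45.3 and 48.2 CPM in the controls, 58.4, 52.5, 55.8 and 54.2 at 2.5 µM and 55.7, 53.4, 55.97 and 51.4 at 5 µM. Both treated groups lay above the controls and overlapped each other. The log2 fold change was 0.31 ± 0.07 (SE, edgeR adjusted p = 6.23e-05) at 5 µM.

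EIF2B1, the alpha subunit gene, rose alike, by 0.32 ± 0.05 (SE, edgeR adjusted p = 2.91e-07) at 5 µM. EIF2B4, the delta subunit gene, was higher at 2.5 µM, at 0.25 ± 0.07 (SE, edgeR adjusted p = 0.00171), and stood at 0.01 ± 0.07 (SE, edgeR adjusted p = 0.881) at 5 µM. EIF2B3, the gamma subunit gene and partner of EIF2B5 in the catalytic subcomplex, went the other way: 51.7 ± 3.47 CPM in the controls, 48.5 ± 3.66 at 2.5 µM and 29.00 ± 0.658 at 5 µM (SD, n = 4). It fell by 0.83 ± 0.07 on the log2 scale (SE, edgeR adjusted p = 4.31e-13). Within each library, the ratio of EIF2S1 to EIF2B5 counts was 3.65 in the controls, 3.50 at 2.5 µM and 2.24 at 5 µM (group means). The difference in log2 ratio between 5 µM and the controls was -0.70 (two-sided exact permutation test, p = 0.0286, the smallest that 4 against 4 libraries allow, adjusted p = 0.0413 over 39 tests of 13 gene pairs). Every 5 µM value lay below the controls for EIF2S1 and above them for EIF2B5. This p was fixed by that separation and is no further support.

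All 4 eIF2 kinases were expressed, and all passed the test at 5 µM, 2 higher and 2 lower, with small differences. Of all genes tested, 78.2% passed at that dose. EIF2AK3 (PERK), which responds to unfolded protein in the endoplasmic reticulum, read 51.2, 56.4, 49.5 and 54.1 CPM in the controls, 52.5, 52.8, 52.1 and 48.9 at 2.5 µM and 46.2, 45.4, 45.6 and 47.8 at 5 µM. All 4 values at 5 µM were below all others. It fell by 0.19 ± 0.06 on the log2 scale (SE, edgeR adjusted p = 0.00422). On library-size scaling without TMM the difference at 5 µM was -0.06 and the call was lost (edgeR adjusted p = 0.394). EIF2AK4 (GCN2), which responds to uncharged tRNA, read 149, 157, 163 and 145 CPM in the controls, 174, 174, 160.1 and 166 at 2.5 µM and 187, 192, 196 and 194 at 5 µM. The 5 µM values were above all others, and the control and 2.5 µM values overlapped. The log2 fold change was 0.33 ± 0.05 (SE, edgeR adjusted p = 1.41e-07) at 5 µM and 0.14 ± 0.05 (SE, edgeR adjusted p = 0.0119) at 2.5 µM, where leaving out control replicate 4 gave 0.11 (edgeR adjusted p = 0.0515).

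EIF2AK1 (HRI), which responds to low haem and to mitochondrial stress, had 363 ± 9.98 CPM in the controls, 412 ± 5.53 at 2.5 µM and 426 ± 5.01 at 5 µM (SD, n = 4), the highest level per kilobase of the 4. The edgeR log2 fold change was 0.23 ± 0.04 (SE, edgeR adjusted p = 3.8e-06) at 5 µM. EIF2AK2 (PKR), which binds double-stranded RNA, fell by 0.25 ± 0.06 on the log2 scale (SE, edgeR adjusted p = 0.000531) at 5 µM, a call lost on library-size scaling (-0.11, edgeR adjusted p = 0.118). The count ratio of EIF2AK3 to EIF2AK4 was 0.344 in the controls, 0.306 at 2.5 µM and 0.241 at 5 µM. The difference in log2 ratio between 5 µM and the controls was -0.52 (exact permutation p = 0.0286, adjusted p = 0.0413). With both genes already separate from the controls in opposite directions, this p was fixed and is no further support.

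eIF3 is the largest initiation factor and holds the small subunit together with the other factors. Of the 13 tested subunit genes, 9 fell and 2 rose at 5 µM, and 5 fell and 2 rose at 2.5 µM. The share called was 84.6% at 5 µM, against 78.2% of all genes, and 53.85% at 2.5 µM, against 59.1%. The share lower was 69.2% at 5 µM, against 39.4% of all genes, and 38.5% at 2.5 µM, against 28.5%. Their log2 fold changes at 5 µM spread from -1.16 to 0.36, with an SD of 0.51 over the 13 genes, against an SD of 0.21 at 2.5 µM.

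EIF3A encodes the large subunit on which the complex is built, and read 460.3, 473, 432 and 446 CPM in the controls, 429, 432, 433 and 401 at 2.5 µM and 239.7, 250.0, 227 and 235 at 5 µM. All 4 values at 5 µM were below all others, and the control and 2.5 µM values overlapped. It fell by 0.93 ± 0.04 on the log2 scale (SE, edgeR adjusted p = 3.43e-19), and the difference at 2.5 µM was -0.10 ± 0.04 (SE, edgeR adjusted p = 0.0592), which passed the test under 8 of 20 other settings of the analysis. EIF3E read 162, 162, 137 and 136 CPM in the controls, 105, 123, 114 and 103 at 2.5 µM and 64.3, 65.96, 58.02 and 77.9 at 5 µM. The groups did not overlap, and the controls fell into a higher and a lower pair. It fell by 1.16 ± 0.09 on the log2 scale (SE, edgeR adjusted p = 1.19e-09), the largest fall of the 13. EIF3M, like EIF3E a member of the PCI and MPN core, read 139, 143, 125 and 135 CPM in the controls, 122, 129, 125 and 119 at 2.5 µM and 64.2, 69.9, 63.3 and 72.6 at 5 µM. It fell by 1.004 ± 0.05 on the log2 scale (SE, edgeR adjusted p = 9.5e-18). EIF3J, a loosely bound subunit, read 157, 168, 149.9 and 177 CPM in the controls, 142, 143, 151 and 130.3 at 2.5 µM and 74.8, 78.9, 73.8 and 81.4 at 5 µM. Both genes had separate 5 µM values and overlapping control and 2.5 µM values. EIF3J fell by 1.08 ± 0.06 on the log2 scale (SE, edgeR adjusted p = 2.92e-18).

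EIF3L, a further core gene, fell already at the lower dose. Its values were 210.2, 208, 221 and 212 CPM in the controls, 168, 161, 164 and 169.9 at 2.5 µM and 143, 135, 149 and 153 at 5 µM, 3 groups without overlap. It fell by 0.36 ± 0.05 on the log2 scale (SE, edgeR adjusted p = 3.27e-08) at 2.5 µM, and the log2 fold change at 5 µM was -0.55. A gene on the same strand (AL022311.1) overlaps 41.1% of its exon bases. EIF3B and EIF3D, the latter a subunit that can bind the cap, passed the test at 5 µM and not at 2.5 µM, with log2 fold changes at 5 µM of -0.33 and -0.35. EIF3C fell by 0.80 ± 0.12 on the log2 scale (SE, edgeR adjusted p = 1.95e-07), on 419 counts at 5 µM over 4 libraries. EIF3K had log2 fold changes of -0.29 ± 0.05 (SE, edgeR adjusted p = 3.57e-06) at 2.5 µM and -0.13 ± 0.05 (SE, edgeR adjusted p = 0.0134) at 5 µM. The call at 5 µM was lost under RLE scaling, upper quartile scaling and DESeq2, and the value was 0.0052 on library-size scaling (edgeR adjusted p = 0.917).

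The other eIF3 genes were not called lower at 5 µM. EIF3I, of the B-G-I module that contacts mRNA and scanning factors, read 266, 264, 301 and 291 CPM in the controls, 294, 279, 288 and 308 at 2.5 µM and 358, 351, 374 and 353 at 5 µM. Only the 5 µM group stood apart, above the rest. On the log2 scale the change was 0.36 ± 0.05 (SE, edgeR adjusted p = 2.51e-08). EIF3G of the same module read 99.4, 99.8, 114 and 113 CPM in the controls, 134, 124, 117 and 136 at 2.5 µM and 107, 105, 98.7 and 93.7 at 5 µM. The 2.5 µM values lay above the controls and the 5 µM values overlapped them. The log2 fold change was 0.26 ± 0.06 (SE, edgeR adjusted p = 0.000181) at 2.5 µM and -0.07 ± 0.06 (SE, edgeR adjusted p = 0.246) at 5 µM. EIF3F read 43.05, 43.9, 47.9 and 46.5 CPM in the controls, 54.9, 53.5, 50.9 and 59.6 at 2.5 µM and 53.3, 52.2, 49.7 and 51.9 at 5 µM. Both treated groups were above the controls. The log2 fold change was 0.19 ± 0.06 (SE, edgeR adjusted p = 0.00537) at 5 µM, and with its pseudogene added it was 0.10 ± 0.05 (SE, edgeR adjusted p = 0.0661), which did not pass. EIF3H, with 213 ± 5.74 CPM in the controls, 216 ± 6.22 at 2.5 µM and 216 ± 12.9 at 5 µM (SD, n = 4), differed at 5 µM by 0.02 ± 0.05 (SE, edgeR adjusted p = 0.7). The EIF3A to EIF3B count ratio was 0.801 in the controls, 0.768 at 2.5 µM and 0.527 at 5 µM. The log2 ratio differed between 5 µM and the controls by -0.60 (exact permutation p = 0.0286, adjusted p = 0.0413). The adjustment took in tests whose p was fixed, such as that of EIF2S1 to EIF2B5. The adjusted p thus rests partly on them and adds no support to the unadjusted p.

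**Figure D2:**
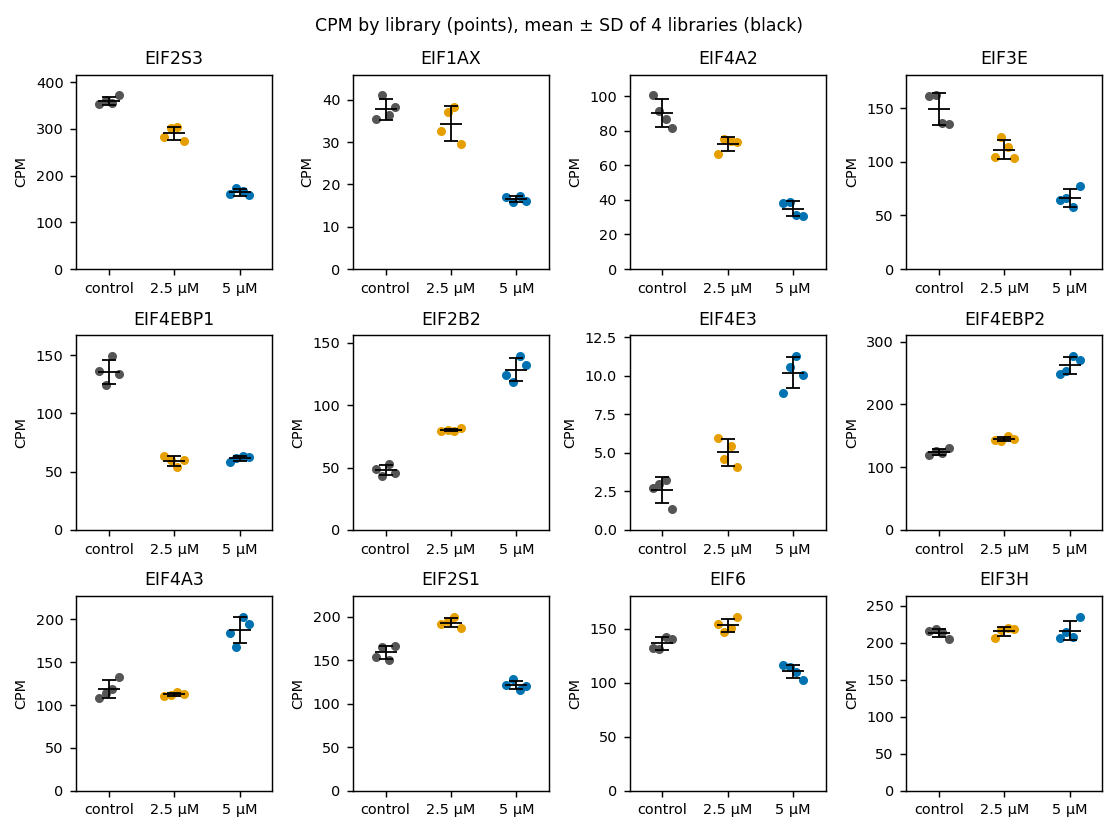
CPM (y axis, from 0) of 12 initiation factor genes in each library (points) by dose (x axis), with the mean and SD of 4 libraries in black. EIF4EBP1 was lower at both doses, EIF4EBP2 and EIF4A3 rose at 5 µM, EIF2S1 and EIF6 were highest at 2.5 µM, and EIF3H passed the test in no comparison.

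eIF4A is the helicase that opens the 5′ ends of mRNAs, and its genes differed in direction. EIF4A2 read 100.5, 91.5, 86.7 and 81.5 CPM in the controls, 66.5, 75.4, 74.1 and 73.3 at 2.5 µM and 38.4, 38.8, 31.1 and 30.9 at 5 µM. The groups stepped down with dose without overlap. It fell by 1.38 ± 0.07 on the log2 scale (SE, edgeR adjusted p = 9.89e-17), the largest fall of the 52 at 5 µM, and the log2 fold change at 2.5 µM was -0.32. EIF4A3, a relative that sits in the exon junction complex and not in eIF4F, read 108, 114, 119 and 133 CPM in the controls, 111, 111, 115 and 113 at 2.5 µM and 184, 168, 203 and 194 at 5 µM. The 5 µM values were all above the rest, and the control and 2.5 µM values overlapped. The gene's log2 fold change was 0.66 ± 0.06 (SE, edgeR adjusted p = 1.71e-12). EIF4B, a cofactor of the helicase, read 449, 402, 459.9 and 387 CPM in the controls, 323, 319.7, 324 and 323 at 2.5 µM and 309.5, 301, 306 and 317 at 5 µM. The controls stood above the 2.5 µM values, and these above the 5 µM values by a narrow margin. It fell by 0.40 ± 0.05 on the log2 scale (SE, edgeR adjusted p = 9.31e-09) at 2.5 µM, the log2 fold change at 5 µM was -0.46, and the step between the doses was -0.07 ± 0.05 (SE, edgeR adjusted p = 0.224). EIF4H, a further cofactor, was higher at 2.5 µM at 0.23 ± 0.05 (SE, edgeR adjusted p = 7.08e-05), and stood at 0.00 ± 0.05 (SE, edgeR adjusted p = 0.998) at 5 µM.

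EIF4A1, the main helicase gene, was counted at only 6.33, 4.54, 5.28 and 4.91 CPM in the controls, 4.24, 4.43, 5.24 and 5.11 at 2.5 µM and 4.19, 3.01, 4.18 and 3.56 at 5 µM. The highest 5 µM value lay just below the lowest of the other 8 libraries, and the control and 2.5 µM values overlapped. It fell by 0.49 ± 0.15 on the log2 scale (SE, edgeR adjusted p = 0.00341) on 196 counts at 5 µM. These counts are a small part of those of its family: 719 lay under EIF4A1 over the 12 libraries, 42340 under EIF4A1P10, and 98.9% of the family under named pseudogenes. Exons of other genes on the same strand cover 48.6% of the exon bases of EIF4A1 in GENCODE 29, and how reads that fit several genes or places were counted is not given in the sources used here. EIF4A1P10 alone had 307 ± 13.4 CPM in the controls, 298 ± 12.1 at 2.5 µM and 204 ± 3.17 at 5 µM (SD, n = 4). With all named copies added, the family stood at 479 ± 25.2 CPM in the controls, 471 ± 17.8 at 2.5 µM and 314 ± 7.06 at 5 µM and its log2 fold change was -0.61 ± 0.04 (SE, edgeR adjusted p = 2.56e-14) at 5 µM and -0.03 ± 0.04 (SE, edgeR adjusted p = 0.628) at 2.5 µM. The direction at 5 µM was the same with and without copies, while the level differed widely.

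eIF4E binds the cap. EIF4E read 11.4, 10.7, 10.02 and 11.4 CPM in the controls, 12.3, 13.3, 14.02 and 11.6 at 2.5 µM and 9.09, 10.2, 7.84 and 11.6 at 5 µM. The 2.5 µM values were just above the controls, and the 5 µM values ran from below the controls to the lower end of the 2.5 µM group. Its log2 fold change was 0.23 ± 0.11 (SE, edgeR adjusted p = 0.0628) at 2.5 µM and -0.16 ± 0.11 (SE, edgeR adjusted p = 0.181) at 5 µM, neither past the test, and -0.39 ± 0.11 (SE, edgeR adjusted p = 0.00171) between the doses. With its copies added, which held 65.4% of the family counts, EIF4E came to 0.20 ± 0.07 (SE, edgeR adjusted p = 0.0166) at 2.5 µM, past the test, and 0.03 ± 0.07 (SE, edgeR adjusted p = 0.721) at 5 µM. Without 5 µM replicate 4, the highest of its group, the difference at 5 µM was -0.28 (edgeR adjusted p = 0.0336).

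EIF4E3, a relative of eIF4E with weaker cap binding, was the lowest of the 52 in the controls and rose most. It read 2.73, 3.00, 3.22 and 1.35 CPM in the controls, 5.98, 4.57, 5.47 and 4.10 at 2.5 µM and 8.91, 10.6, 11.3 and 10.1 at 5 µM. The groups did not overlap, and 128 counts over the 4 controls stood against 538 at 5 µM. The edgeR log2 fold change was 0.95 ± 0.18 (SE, edgeR adjusted p = 3.84e-05) at 2.5 µM and 1.98 ± 0.16 (SE, edgeR adjusted p = 6.33e-13) at 5 µM. EIF4ENIF1 (4E-T), which carries eIF4E to the nucleus and to processing bodies, read 25.2, 23.5, 24.1 and 25.7 CPM in the controls, 27.5, 28.5, 27.9 and 26.1 at 2.5 µM and 32.2, 31.9, 36.5 and 34.5 at 5 µM. The 3 groups were separate, and the log2 fold change was 0.46 ± 0.07 (SE, edgeR adjusted p = 5.08e-07) at 5 µM. EIF4E2 (4EHP), a cap binder that represses translation, differed at 5 µM by 0.09 ± 0.06 (SE, edgeR adjusted p = 0.149).

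The 4E-BP genes went opposite ways. EIF4EBP1 read 137, 124, 149 and 134 CPM in the controls, 63.8, 59.6, 53.8 and 59.8 at 2.5 µM and 57.9, 62.01, 63.1 and 62.4 at 5 µM. Both doses lay far below the controls and overlapped each other. It fell by 1.20 ± 0.06 on the log2 scale (SE, edgeR adjusted p = 3.07e-18) at 2.5 µM, and the log2 fold change at 5 µM was -1.14 ± 0.06 (SE, edgeR adjusted p = 1.62e-18). The step between the doses was 0.05 ± 0.06 (SE, edgeR adjusted p = 0.463). EIF4EBP2 read 119, 125, 122 and 130.4 CPM in the controls, 143, 142, 150.4 and 144 at 2.5 µM and 248, 254, 277 and 270.4 at 5 µM. The groups stepped up without overlap, most of it between the doses. On the log2 scale the change was 0.22 ± 0.05 (SE, edgeR adjusted p = 0.000164) at 2.5 µM and 1.08 ± 0.05 (SE, edgeR adjusted p = 2.4e-20) at 5 µM.

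Within each library, EIF4EBP1 had 1.09 times the counts of EIF4EBP2 in the controls, 0.408 times at 2.5 µM and 0.234 times at 5 µM. The log2 ratio differed from the controls by -2.22 at 5 µM and by -1.42 at 2.5 µM (exact permutation p = 0.0286 for each, adjusted p = 0.0413). At both doses every treated value lay below the controls for EIF4EBP1 and above them for EIF4EBP2. These p-values were fixed by that separation and are no further support. The count ratio of EIF4EBP1 to EIF4E was 12.4 in the controls, 4.62 at 2.5 µM and 6.38 at 5 µM, and the log2 ratio differed from the controls by -1.43 and -0.96 (exact permutation p = 0.0286 for each, adjusted p = 0.0413). The p at 2.5 µM was fixed likewise, as all EIF4E values there lay above the controls. The count ratio of EIF4EBP2 to EIF4E was 11.4 in the controls, 11.3 at 2.5 µM and 27.3 at 5 µM. The log2 ratio was 1.26 higher at 5 µM than in the controls (exact permutation p = 0.0286, adjusted p = 0.0413). For both ratios to EIF4E at 5 µM, the adjusted p rests partly on the fixed tests adjusted with them. With the counts of the named copies of each gene added, an alternative chosen after seeing the data, the ratio to EIF4E was 4.48, 1.69 and 1.98 for EIF4EBP1 and 4.12, 4.15 and 8.49 for EIF4EBP2 in the same order of groups. The log2 differences at 5 µM were then -1.18 and 1.04 (exact permutation p = 0.0286 for each). Summed, the 2 genes stood at between 249 and 272 CPM in the controls, between 201 and 207 at 2.5 µM and between 306 and 339.9 at 5 µM.

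eIF4G is the scaffold that joins eIF4E, eIF4A and the poly(A)-binding protein. EIF4G1 read 662, 676, 735 and 762 CPM in the controls, 770.0, 713, 753 and 751 at 2.5 µM and 883, 877, 885 and 809 at 5 µM. All 4 values at 5 µM were above all others, and the rest overlapped. The gene's log2 fold change was 0.28 ± 0.05 (SE, edgeR adjusted p = 1.48e-06). EIF4G3, a second scaffold gene, read 102, 105, 93.3 and 96.6 CPM in the controls, 75.4, 75.1, 72.6 and 70.03 at 2.5 µM and 53.5, 56.8, 49.5 and 57.8 at 5 µM. Its groups stepped down without overlap, and it fell by 0.87 ± 0.06 on the log2 scale (SE, edgeR adjusted p = 1.65e-15) at 5 µM, with a log2 fold change at 2.5 µM of -0.44. EIF4G2 (DAP5), which lacks the eIF4E site and serves cap-independent initiation, had 724 ± 31.9 CPM in the controls, 723 ± 19.4 at 2.5 µM and 499 ± 10.5 at 5 µM (SD, n = 4). It fell by 0.54 ± 0.04 on the log2 scale (SE, edgeR adjusted p = 1.75e-13) at 5 µM, and the difference at 2.5 µM was -0.0009 (edgeR adjusted p = 0.987). EIF4G1 and EIF4G2 had near-equal counts in the controls, at a ratio of 0.978, which was 1.03 at 2.5 µM and 1.73 at 5 µM. The log2 ratio at 5 µM was 0.82 higher than in the controls (exact permutation p = 0.0286, adjusted p = 0.0413). As all EIF4G2 values at 5 µM lay below the controls and all EIF4G1 values above them, this p was fixed and is no further support. EIF4G1 to EIF4G3 went from 7.14 in the controls to 10.2 at 2.5 µM and 15.9 at 5 µM.

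**Figure D3:**
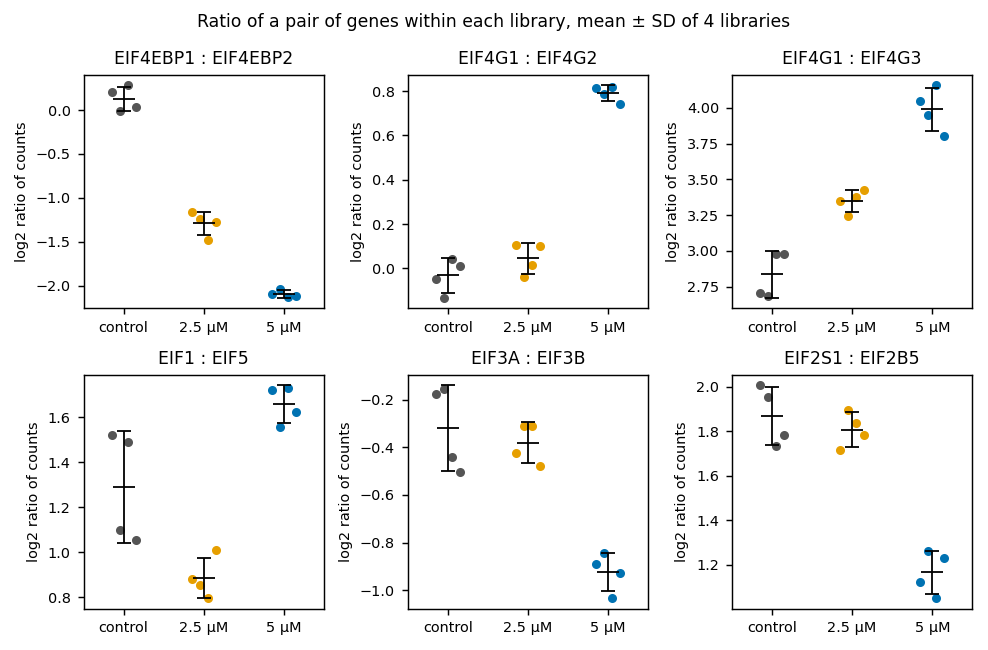
Log2 ratio of the counts of 2 genes in the same library (y axis) by dose (x axis) for 6 gene pairs, with points for libraries and the mean and SD of 4 libraries in black. The EIF4EBP1 to EIF4EBP2 ratio falls at each dose, and the EIF4G1 to EIF4G2 ratio is higher at 5 µM than in the other groups.

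eIF5 makes eIF2 hydrolyse its GTP and eIF5B joins the subunits. EIF5 read 174, 218, 181 and 231 CPM in the controls, 222, 223, 231 and 211 at 2.5 µM and 105, 117, 108 and 118 at 5 µM. The 5 µM values were below all others, and the controls were split into a lower and a higher pair. It fell by 0.84 ± 0.07 on the log2 scale (SE, edgeR adjusted p = 4.07e-09), and the difference at 2.5 µM was 0.14 ± 0.07 (SE, edgeR adjusted p = 0.106). EIF5B fell by 0.41 ± 0.09 on the log2 scale (SE, edgeR adjusted p = 0.00101), with values that overlapped those of the controls. The EIF1 to EIF5 count ratio was 2.45 in the controls, 1.85 at 2.5 µM and 3.16 at 5 µM. Its log2 value was 0.37 higher at 5 µM than in the controls (exact permutation p = 0.0286, adjusted p = 0.0413). This adjusted p rests partly on tests of other pairs whose p was fixed. Leaving out any 1 of the 5 µM libraries raised the exact p to between 0.0857 and 0.114. All 5 µM ratios lay above all control ratios, so the larger p does not trace to a single 5 µM library.

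eIF5A, despite its name, acts mainly in elongation and termination and carries the amino acid hypusine. EIF5A had the highest level per kilobase of the 52 and read 713, 689, 789 and 734 CPM in the controls, 661, 635, 613 and 657 at 2.5 µM and 596, 569.5, 609 and 564 at 5 µM. The groups stepped down without overlap. It fell by 0.32 ± 0.05 on the log2 scale (SE, edgeR adjusted p = 8.73e-08). EIF5A2, its tissue-restricted paralogue, read 7.19, 6.89, 5.91 and 8.29 CPM in the controls, 7.87, 8.86, 11.3 and 7.33 at 2.5 µM and 11.4, 10.1, 13.8 and 13.9 at 5 µM. All 4 values at 5 µM were above the controls and overlapped the 2.5 µM values. Its log2 fold change was 0.81 ± 0.13 (SE, edgeR adjusted p = 1.67e-06) at 5 µM and 0.32 ± 0.14 (SE, edgeR adjusted p = 0.0484) at 2.5 µM, and the latter was lost under 12 of 20 other settings. EIF5AL1, a copy of EIF5A, fell by 0.44 ± 0.06 on the log2 scale (SE, edgeR adjusted p = 1.05e-08), and reads of EIF5A could be counted there. The count ratio of EIF5A to EIF5A2 was 103.5 in the controls, 73.2 at 2.5 µM and 47.8 at 5 µM, and the log2 ratio differed between 5 µM and the controls by -1.11 (exact permutation p = 0.0286, adjusted p = 0.0413). Given the opposite and separate values of EIF5A and EIF5A2, this p was fixed and is no further support. EIF6, which keeps free large subunits from joining small ones, read 132, 131, 143 and 141 CPM in the controls, 155, 147, 151 and 161 at 2.5 µM and 117, 114, 109.7 and 103 at 5 µM. The 3 groups did not overlap, with 2.5 µM the highest. The edgeR log2 fold change was 0.17 ± 0.05 (SE, edgeR adjusted p = 0.00415) at 2.5 µM and -0.30 ± 0.05 (SE, edgeR adjusted p = 1.94e-06) at 5 µM.

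For the other genes with many counts under copies, the sum of parent and copies moved as the parent did at 5 µM. EIF2S2 had 48.7% of its family counts under copies, and the log2 fold change was -0.83 alone and -0.86 ± 0.06 (SE, edgeR adjusted p = 1.83e-15) with copies. EIF3E had 25.1% and changed by -1.13 ± 0.09 (SE, edgeR adjusted p = 2.73e-09) with copies. EIF5A had 17.9%, mostly under EIF5AL1, and changed by -0.35 ± 0.04 (SE, edgeR adjusted p = 1.53e-08) with copies.

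**Figure D4:**
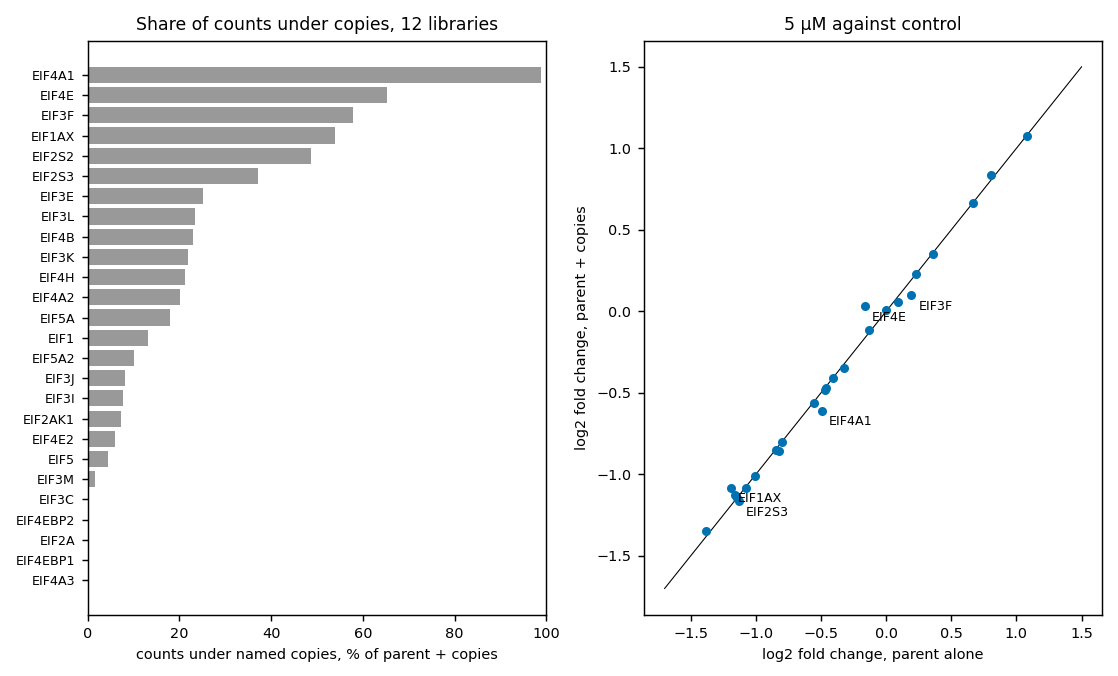
Left, the share of counts that lay under named copies (x axis, % of parent and copies over 12 libraries) for 26 initiation factor genes (y axis). Right, log2 fold change at 5 µM of the parent alone (x axis) and with copies added (y axis), with the line of equality. EIF4A1 has 98.9% of its family counts under copies, and EIF4E, EIF4A1, EIF1AX and EIF3F lie furthest off the line.

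Upstream sequence was searched for 2 motifs in RefSeq promoters (GRCh38.p14, 250 bases before to 50 after a start), which covered 47 of the 56 genes. The E-box CACGTG, which reads the same on both strands and is bound by MYC and related factors, occurred in 12 of the 47 (25.5%), against 11% of 14688 protein-coding genes. Those genes were not limited to the ones tested here. EIF4E and EIF4G1, the genes for the cap binder and its scaffold, had 2 matches each before the start, as had EIF5A2. Those of EIF4E and EIF4G1 are shown with the E-box in capitals.
EIF4E chr4:98929326-98929383 (minus strand): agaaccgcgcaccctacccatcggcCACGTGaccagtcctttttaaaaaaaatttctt
EIF4E chr4:98929173-98929232 (minus strand): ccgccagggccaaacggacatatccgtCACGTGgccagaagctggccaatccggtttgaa
EIF4G1 chr3:184314435-184314494 (plus strand): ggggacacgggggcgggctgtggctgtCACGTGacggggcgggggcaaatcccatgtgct
EIF4G1 chr3:184314512-184314571 (plus strand): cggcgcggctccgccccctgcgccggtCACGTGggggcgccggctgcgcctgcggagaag
Of the 11 tested genes with an E-box, 4 rose and 5 fell at 5 µM (median log2 fold change -0.13), and of the 33 tested genes with a promoter and no match, 8 rose and 21 fell (median -0.35). EIF4E did not pass the test and EIF4G1 rose. The calls of E-box genes at large were not counted, so this split has no background, and it was not tested. TGATGNAA, an element of C/EBP and ATF proteins, searched on both strands, occurred in 1 of the 47 (2.13%), EIF4E3, against 3.6% of the genes. A match is a description of letters and was not tested as a site.

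The lists of other genes below were set with earlier results of these data known. Of 17 genes that control or read out the phosphorylation of eIF2, 13 fell and 2 rose at 5 µM, and 10 fell and 3 rose at 2.5 µM. At 5 µM, 76.5% were lower and 11.8% higher, against 39.4% and 38.7% of all genes. At 2.5 µM, 58.8% were lower and 17.65% higher, against 28.5% and 30.7% of all genes. ATF4, whose mRNA is translated when eIF2 is phosphorylated, had 408 ± 10.4 CPM in the controls, 176 ± 10.5 at 2.5 µM and 79.3 ± 5.52 at 5 µM (SD, n = 4). It fell by 2.37 ± 0.05 on the log2 scale (SE, edgeR adjusted p = 2.2e-28). DDIT3 (CHOP), a further stress factor, fell by 1.34 ± 0.07 on the log2 scale (SE, edgeR adjusted p = 4.72e-18), and TRIB3, a target of both, fell by 2.15 ± 0.06 on the log2 scale (SE, edgeR adjusted p = 3.34e-26). IMPACT, which holds back GCN2, fell by 2.33 ± 0.08 on the log2 scale (SE, edgeR adjusted p = 5.57e-23). PPP1R15A (GADD34), the stress-induced subunit of the phosphatase that removes the phosphate from eIF2, had 60.6 ± 3.81 CPM in the controls, 83.5 ± 4.07 at 2.5 µM and 99.5 ± 3.23 at 5 µM (SD, n = 4), and its log2 fold change at 5 µM was 0.72 ± 0.06 (SE, edgeR adjusted p = 9.02e-14). METAP2, whose product binds eIF2 and shields it from phosphorylation, was the other gene of the list that rose at 5 µM.

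Among 30 tested genes of mTORC1 and MNK control of eIF4F, 13 were called higher and 12 lower at 5 µM. These shares, 43.3% and 40.0%, were near the 38.7% and 39.4% of all genes. MTOR fell by 0.22 ± 0.04 on the log2 scale (SE, edgeR adjusted p = 4.07e-05), a call lost on library-size scaling (-0.09, edgeR adjusted p = 0.0538). DDIT4 (REDD1), an inhibitor of mTORC1, fell by 2.53 ± 0.06 on the log2 scale (SE, edgeR adjusted p = 2.29e-26), with 969 ± 77.97 CPM in the controls, 334 ± 16.02 at 2.5 µM and 168 ± 12.6 at 5 µM (SD, n = 4). PDCD4, which binds eIF4A and blocks it, fell by 0.29 ± 0.06 on the log2 scale (SE, edgeR adjusted p = 1.9e-05). RPS6, a ribosomal protein whose phosphorylation follows mTORC1, fell by 0.59 ± 0.04 on the log2 scale (SE, edgeR adjusted p = 2.15e-14). SESN3, a sestrin that restrains mTORC1, had 0.205 ± 0.103 CPM in the controls, 0.819 ± 0.355 at 2.5 µM and 5.17 ± 0.628 at 5 µM (SD, n = 4). It is 1 of the 13 called higher, but it passed the filter on low counts through the 5 µM libraries, so no fold or test is given for it.

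Of 16 tested initiation partners with other names, 10 fell (62.5%) and 5 rose (31.25%) at 5 µM. The poly(A)-binding protein genes PABPC1 and PABPC4, whose products bind eIF4G, fell, PABPC1 with 502 ± 15.3 CPM in the controls, 376 ± 11.6 at 2.5 µM and 251 ± 2.94 at 5 µM, and PABPC4 with 222 ± 8.06 CPM in the controls, 119.7 ± 4.30 at 2.5 µM and 83.5 ± 3.90 at 5 µM (SD, n = 4). Log2 fold changes at 5 µM were -0.999 ± 0.04 (SE, edgeR adjusted p = 7.74e-21) for PABPC1 and -1.41 ± 0.05 (SE, edgeR adjusted p = 4.41e-23) for PABPC4. DDX3X, a helicase that helps scanning, fell by 0.74 ± 0.05 on the log2 scale (SE, edgeR adjusted p = 8.82e-16). Among 15 tested elongation and termination genes, 10 fell (66.7%) and 1 rose (6.67%) at 5 µM. EEF2, the translocation factor, fell by 1.21 ± 0.05 on the log2 scale (SE, edgeR adjusted p = 4.77e-21), its inhibitory kinase EEF2K fell by 1.38 ± 0.06 on the log2 scale (SE, edgeR adjusted p = 1.19e-19) and EEF1A1 fell by 0.79 ± 0.05 on the log2 scale (SE, edgeR adjusted p = 1.02e-16). The gene that rose was DOHH, which completes the hypusine of eIF5A (log2 fold change 0.77). Of 9 mitochondrial factors, 4 fell (44.4%) and 3 rose (33.3%) at 5 µM. MTIF2, the mitochondrial counterpart of eIF2 and eIF5B in tRNA delivery, fell by 0.82 ± 0.06 on the log2 scale (SE, edgeR adjusted p = 4.45e-14), while TUFM, at 0.48 ± 0.05 (SE, edgeR adjusted p = 5.22e-11), and GFM2, at 0.86 ± 0.05 (SE, edgeR adjusted p = 2.11e-17), rose. Beside these counts, the background over all genes at 5 µM applies, where 78.2% were called, 39.4% lower and 38.7% higher.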

How the data were processed

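The deposited table holds raw read counts per gene for the 12 libraries, made by the authors from poly-A RNA with a stranded kit. Per the submitters' processing notes, the genome build was GRCh37 and the tools included STAR 2.4.1d and Bowtie2 2.2.4, featureCounts 1.4.6, and edgeR 3.8.6, beside cutadapt 1.7.1, bedtools 2.17.0, Cufflinks 2.1.1 and SAMtools 1.1, with no role stated for any of them. Neither the annotation release nor the strand setting nor the handling of reads that fit several places is given in the sources used here. Symbols came from GENCODE 29 (GRCh38) by Ensembl identifier, so no gene coordinates on the build of the counts are given. The coordinates printed for promoter stretches are on GRCh38.p14.

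Groups came from the labels. Counts were fitted across all 12 libraries with edgeR 4.0.16 (R 4.3.3, limma 3.58.1) by its quasi-likelihood test, with TMM scaling and the filterByExpr filter on low counts, which left 16839 genes. Benjamini-Hochberg adjustment ran over these genes, with a threshold of 0.05. The biological coefficient of variation was 5.43% with 9 residual degrees of freedom. Standard errors of log2 fold changes were taken from the F statistic. The test was checked on simulated counts. CPM values use TMM-scaled library sizes. Ratios of 2 genes were taken within a library after adding 0.5 to each count and compared by exact permutation tests. Where both genes were already separate in opposite directions, the smallest p was fixed and is no further support. These fixed tests were adjusted together with the rest, so the adjusted p of the other ratios rests partly on them. No replicate pair matched within counting error, since a chi-square comparison of their counts, divided by its degrees of freedom, gave 1.66 to 5.41 over 18 pairs.

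Alternatives were RLE, upper quartile and library-size scaling, no filter, only the 2 groups compared, DESeq2 1.42.0, a block for the replicate number, leaving out each library, and adding named copies to their parent gene. The members and the gene lists were chosen with earlier results of these data known. Values in every library are given for the 6 genes with the largest change in each direction per comparison, among those past the threshold without overlap, and for 13 genes listed by name. METAP2 and DOHH were named after their values were seen. The level of EIF1AY is not reported here.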

Additional observations from a re-analysis of the deposited data

Results flagged for a closer look

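In 3 of 156 sets of 4 libraries (52 genes in 3 groups), 1 library stood far from the other 3 of its group for its gap in CPM. Chance alone gives about 1 in 20 such sets. EIF3A was at 401.0 CPM in 2.5 µM replicate 4, against 429.4 to 433.1 CPM in the others. EIF4G1 was at 808.6 CPM in 5 µM replicate 4, against 877.3 to 885.1 CPM. EIF5AL1 was at 107.4 CPM in 5 µM replicate 2, against 100.2 to 101.3 CPM.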

How the results depend on the processing

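Of the 44 initiation factor genes called at 5 µM against control, 40 were called under every alternative run for them, of the 33 at 2.5 µM 29, and of the 40 between the doses 35 (20 alternatives, or 19 for EIF2S3B and EIF5AL1, which the setting with copies added merges into their parents). The numbers called ranged from 12 to 18 higher and 28 to 32 lower at 5 µM, 14 to 20 and 17 to 19 at 2.5 µM, and 10 to 13 and 25 to 31 between the doses. The sign of 1 called value turned, EIF3K at 5 µM with library-size scaling (0.0052 in place of -0.13).

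The median log2 fold change at 5 µM against control (-0.33) was -0.30 with RLE, -0.28 with upper quartile and -0.19 with library-size scaling, -0.34 with no filter, -0.31 with only the 2 groups compared and -0.32 with copies added, and ranged from -0.36 to -0.29 when 1 library was left out. Between the doses (-0.19) it was -0.16, -0.14 and -0.10 with these scalings, -0.21 with no filter and -0.16 with copies added, and ranged from -0.22 to -0.17 with 1 library left out. At 2.5 µM (-0.03) it was 0.0151 with library-size scaling. The cause was not tested.

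At 2.5 µM, EIF1B without control replicate 4 came to -0.16 (edgeR adjusted p = 0.084), and EIF5A2 without 2.5 µM replicate 3 to 0.18 (edgeR adjusted p = 0.268). EIF3M at 2.5 µM lost its call without control replicate 1 or 2 or 2.5 µM replicate 1 or 4 (edgeR adjusted p = 0.0639 to 0.109). Of 27 gene-pair ratios past the threshold, 20 kept an unadjusted exact permutation p under 0.05 whichever library was left out. With a pseudocount of 2, 27 did. The p-values of these checks were not adjusted.

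Deviations of libraries with the same replicate number correlated at -0.13 to 0.0745 over 12 pairs, and those with different numbers at -0.132 to 0.17 over 36 pairs. No pairing by number was visible, but a weak shared batch could go unseen in these values. They compare libraries across groups and do not bear on structure within a group. Among the controls, the chi-square per degree of freedom was 2.13 for replicates 1 and 2 and 5.41 for replicates 1 and 4. Whether the controls, which both dose comparisons share, hold a batch was not tested. The fit with a replicate block gave the counts 13 and 31, 15 and 18, and 10 and 30, as without it. EIF5 at 2.5 µM was then called (edgeR adjusted p = 0.0384) and EIF5A2 was not (edgeR adjusted p = 0.0564). Paired ratios could not go below an exact p of 0.125.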
